A study of Mus musculus with 2 samples.

Results

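Chemokines and their receptors were examined on 2 Affymetrix Mouse Genome 430 2.0 arrays. The genes were chosen by name: a probe set counted when its only annotated symbol was a CC, CXC or CX3C chemokine, Xcl1, a CC, CXC or CX3C receptor, or an atypical receptor (Ackr). The rule gave 53 of the 18193 genes with a probe set of their own, on 85 probe sets, of which 33 genes were ligands and 20 were receptors. Each array held RNA of 3T3-L1 cells, a mouse preadipocyte line. One group received an siRNA against Phf21a, which encodes BHC80, a histone-reading subunit of a corepressor complex. The other group received the control siRNA siGL3. Both were induced 24 h later with insulin, dexamethasone and 3-isobutyl-1-methylxanthine in medium (DMEM, 25 mM glucose, 10% FBS), and were harvested after another 24 h. The glucocorticoid dexamethasone was thus present in the controls too, and uninduced cells are not part of the comparison.

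Chemokines are small secreted proteins that guide white blood cells along a gradient, and each family is named after the spacing of its first cysteines. Conventional receptors are G protein-coupled receptors found mostly on leukocytes, whereas atypical receptors bind and clear chemokines without G protein signalling. Preadipocytes and adipocytes release chemokines such as Ccl2 that draw monocytes and neutrophils into fat, and many chemokine genes are switched on by NF-kB and repressed by glucocorticoids.

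With 1 array in each group there is no error between replicates and no test, and the number of arrays limits the precision. Signals are MAS5 intensities on a linear scale, and a gene counted as detected from a signal of 51.3 on either array, which is the median over all signals of both. Log2 ratios are Phf21a siRNA over control siRNA, taken after signals under the pooled 25th percentile (12.9) were raised to it. Beside a ratio stands its local spread, which is the scatter of the ratios of the 1000 detected genes nearest in signal. That spread comes from 1 array set against 1 array and is not the spread between cultures. Each gene is represented by its brightest detected probe set. Signals of different genes come from different probes and are not compared. Median signals were 49.5 in the Phf21a siRNA array and 52.98 in the control siRNA array. On its brightest probe set Phf21a itself had a signal of 306 in Phf21a siRNA cells, against 768 in control siRNA cells, a 2.51-fold lower level. Its 3 detected probe sets had log2 ratios from -1.35 to -0.73. Another was undetected, at 43.8 in Phf21a siRNA cells and 39.2 in control siRNA cells.

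The cells carried preadipocyte markers of the line. All 6 preadipocyte and fibroblast markers with a probe set were detected, against 62.1% of all genes with a probe set. Of 6 early adipocyte markers 4 were detected (Pparg, Fabp4, Lpl and Cd36), near that share, and Cebpa and Adipoq were not. Cd36 reached the limit by a small margin, at 53.0 in Phf21a siRNA cells and 37.5 in control siRNA cells. The 4 detected early adipocyte markers had a median log2 ratio of 0.58, and 0 passed 2-fold. Fabp4 was at 0.74 ± 0.36, Pparg at 0.67 ± 0.53 and Lpl at -0.15 ± 0.39. Of the 6 preadipocyte and fibroblast markers (median -0.25) Dlk1 alone passed 2-fold, against 11.2% of all detected genes. Dlk1 had 5940 in Phf21a siRNA cells against 12290 in control siRNA cells (-1.05 ± 0.32), while Pdgfrb was at 0.84 ± 0.42. The part of these differences in the chemokine ratios was not tested. Of 21 leukocyte markers 8 were detected, with summed signals of 1113 in Phf21a siRNA cells and 956 in control siRNA cells. Without Csf1r the sums were 661 and 756 in the same order, so the direction of the sum rests on that gene. Of the 8 detected markers 5 had log2 ratios above 0 (Csf1r, Cd68, Fcer1g, Lyz2 and Spi1) and 3 below 0 (Laptm5, S100a8 and Cd8a). Cd68, a macrophage marker, had 119 in Phf21a siRNA cells and 64.04 in control siRNA cells, and Spi1, a myeloid transcription factor, had 71.3 and 60.4 in the same order. Of the 13 undetected markers, Ptprc had signals of 12.2 in Phf21a siRNA cells and 6.87 in control siRNA cells, Tyrobp 6.32 and 4.66 in the same order, and Cd52 3.87 and 1.61. Csf1r is the receptor for macrophage colony-stimulating factor and had 452 in Phf21a siRNA cells against 199.7 in control siRNA cells on its brightest probe set. Its 3 detected probe sets had log2 ratios from 0.18 to 1.18. The part of such markers in the chemokine ratios was not tested. None of the 4 endothelial markers was detected.

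Ligands and receptors differed in detection. Of the 33 ligand genes 18 (54.5%) were detected, and of the 20 receptor genes 5 (25.0%), against 62.1% of all genes with a probe set. Among the receptors the atypical class was detected in 4 of 4 cases and the conventional class in 1 of 16 (6.25%). The 15 undetected receptors were all conventional, and their 25 probe sets had signals from 0.672 to 32.1 in Phf21a siRNA cells and from 0.804 to 44.3 in control siRNA cells. The 15 undetected ligands had 20 probe sets with signals from 1.07 to 22.9 in Phf21a siRNA cells and from 0.734 to 50.007 in control siRNA cells. Both ranges reach down into the lowest part of the scale, where MAS5 signals are noisy, so no ratio is given for these genes.

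The detection limit fell among the members. Just above it were Ccl11, Ccl27a and Ackr1, with highest signals of 51.9, 54.1 and 55.7. Just below it were Ccl17, Xcl1 and Cx3cr1, with highest signals of 50.007, 45.004 and 44.3. When both arrays had to reach the limit, 13 ligands and 2 receptors remained, the receptors being Ackr3 and Ackr4. Of all genes with a probe set 56.9% remained.

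**Figure D1:**
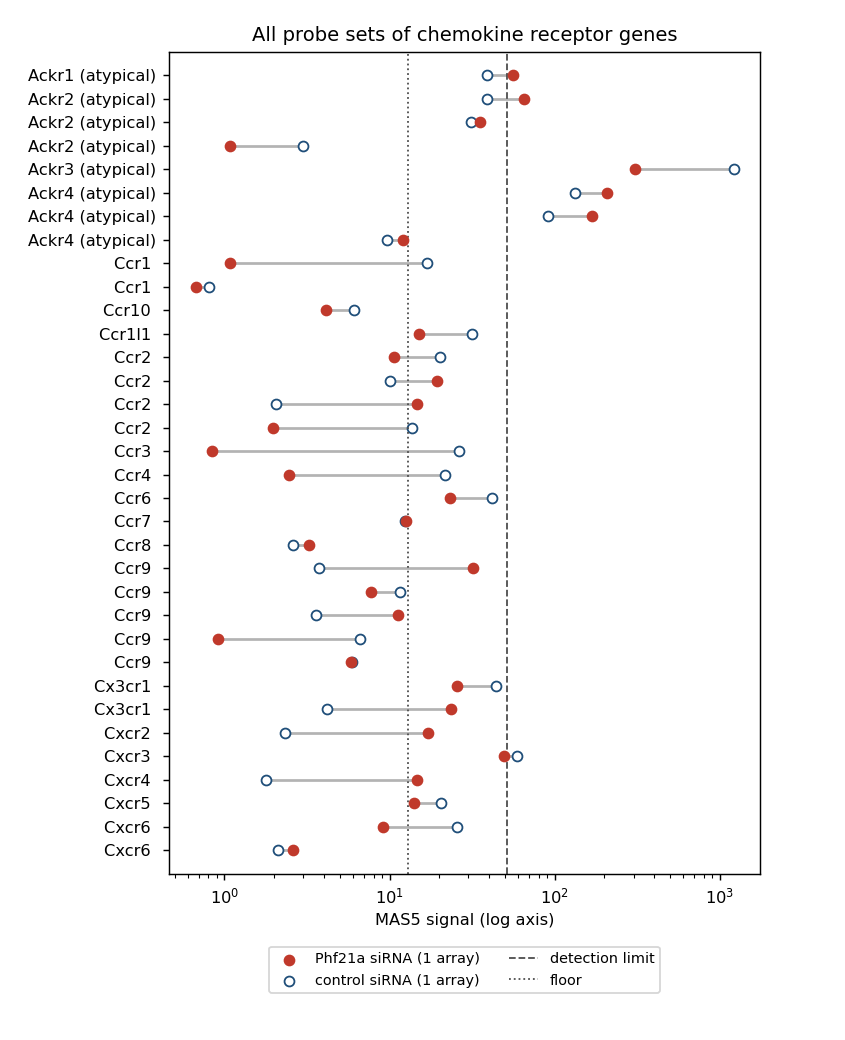
MAS5 signals (log axis) of all 34 probe sets of the 20 chemokine receptor genes in Phf21a siRNA cells (filled) and control siRNA cells (open), 1 array each, with the detection limit (dashed) and the floor (dotted). Atypical receptors are at the top; among conventional receptors Cxcr3 alone crosses the limit, on the control siRNA array.

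Matching ligands to receptors with a list of known pairs gave 17 pairs with a detected ligand and a receptor on the array, covering 16 ligands. In 2 of these pairs the receptor was detected too, namely Cxcl12 with the atypical receptor Ackr3 and Cxcl10 with Cxcr3. The list held Ackr3 as its only atypical receptor. Pairs of the detected Ackr1, Ackr2 and Ackr4 with their ligands were not counted. The receptor of the neutrophil attractants Cxcl1 and Cxcl5 is Cxcr2, whose signals were 17.04 in Phf21a siRNA cells and 2.33 in control siRNA cells. Ccr2, which answers to the monocyte attractants Ccl2 and Ccl7, had 4 probe sets between 1.97 and 19.2 in Phf21a siRNA cells and between 2.06 and 20.3 in control siRNA cells. All of these lay under the limit on both arrays.

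Across the 18 detected ligands, 8 were at least 2-fold lower in Phf21a siRNA cells, against a background of 5.47% of all detected genes, and 2 were at least 2-fold higher, against 5.72%. The 8 were Ccl2, Ccl7, Ccl11, Cxcl1, Cxcl5, Cxcl10, Cxcl17 and Cx3cl1, and the 2 were Ccl5 and Ccl8. With signals raised to the detection limit 6 ligands were still at least 2-fold lower and 1 was at least 2-fold higher, against 3.34% and 4.19% of all detected genes treated alike, since Ccl11, Cxcl17 and Ccl5 each had 1 signal under it. The median log2 ratio of the ligands was -0.51, beside 0.03 over all detected genes, and it was -0.12 with signals raised to the detection limit. Over the 13 ligands with both signals at the limit the median was -0.03, with 5 at least 2-fold lower and 1 at least 2-fold higher, against 3.34% and 4.16% of genes with both signals there. In bulk RNA, fewer cells of a type and less RNA per cell cannot be told apart.

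**Figure D2:**
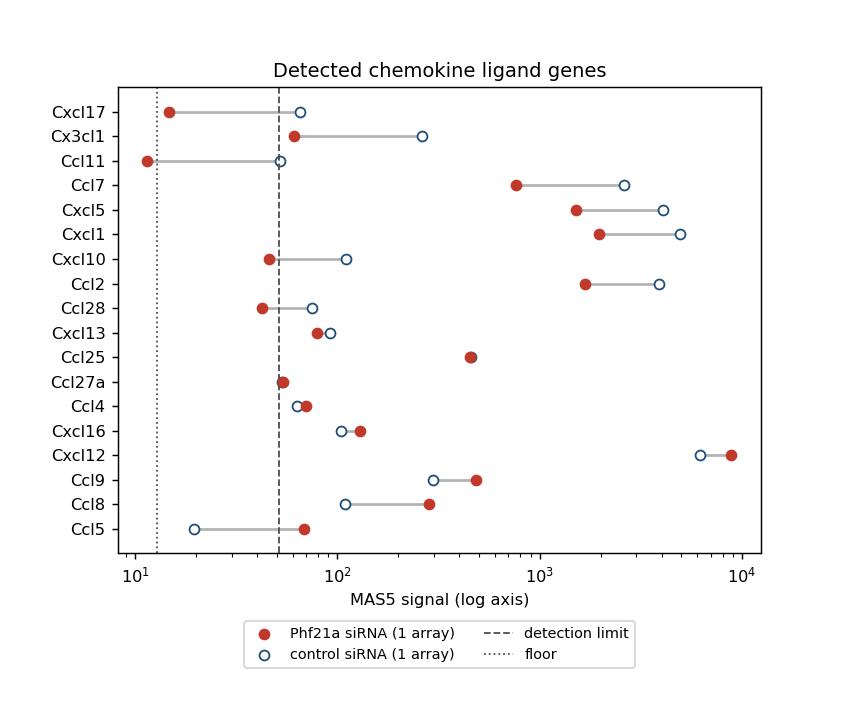
MAS5 signals (log axis) of the 18 detected ligand genes in Phf21a siRNA cells (filled) and control siRNA cells (open), 1 array each, ordered by log2 ratio. The 4 ligands Ccl2, Ccl7, Cxcl1 and Cxcl5 have both signals far above the detection limit (dashed) and lie lower in Phf21a siRNA cells.

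The monocyte attractants Ccl2 and Ccl7, which share the receptor Ccr2, were both lower. Ccl2 (Entrez gene 20296) had a signal of 1678 in Phf21a siRNA cells, against 3879.6 in control siRNA cells, a log2 ratio of -1.21 ± 0.43 (local spread). Ccl7 (Entrez gene 20306) had a signal of 759 in Phf21a siRNA cells, against 2598 in control siRNA cells (log2 ratio -1.78 ± 0.47). Each has 1 probe set, and both ratios lay well beyond their local spread. Ccl12, a mouse chemokine that also acts on Ccr2, was undetected at 2.85 in Phf21a siRNA cells and 31.1 in control siRNA cells.

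Cxcl1 and Cxcl5, which attract neutrophils through Cxcr2, were lower by similar ratios. Cxcl1 (Entrez gene 14825) had 3 probe sets, and all were lower. Their signals were 1972, 1639 and 883 in Phf21a siRNA cells, against 4920.4, 4379 and 1957 in control siRNA cells. The 3 log2 ratios ran from -1.42 to -1.15. Cxcl5 (Entrez gene 20311) had a signal of 1502 in Phf21a siRNA cells, against 4044 in control siRNA cells (log2 ratio -1.43 ± 0.42). Among brighter genes, those with a signal at or above the 75th percentile (461) on either array, 3.34% were at least 2-fold lower and 3.64% at least 2-fold higher. Of the 6 ligands that bright 4 were lower, namely Ccl2, Ccl7, Cxcl1 and Cxcl5, and 0 were higher, while Ccl9 and Cxcl12 lay in between. Cxcl2 and Cxcl3, which act on the same receptor as Cxcl1, were undetected. Cxcl2 had signals of 20.9 in Phf21a siRNA cells and 23.7 in control siRNA cells, and Cxcl3 had 8.75 and 10.2 in the same order.

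Cxcl1, Cxcl2 and Cxcl3 differ in detection, yet their promoters share a run of letters like the kappa-B element, the type of site that NF-kB binds. The 250 bases before the gene start were searched on both strands for GGGNNTTTC, where N is any base. Of 32851 such windows in the RefSeq promoters (GRCm38.p6) 3.72% held a match. Of the 23 ligand genes listed there 7 held one (Cxcl1, Cxcl2, Cxcl3, Cxcl9, Xcl1, Ccl9 and Ccl20), and of the 17 receptor genes 4 did. With 1 more C required after the match, the form searched first, 5 ligand genes (Cxcl1, Cxcl2, Cxcl3, Ccl9 and Ccl20) and 1 receptor gene (Ccr3) held it, against 1.41% of all windows. The windows of Cxcl1 and its undetected relatives are shown with that of Ccl9, the other detected ligand with a match. Capitals mark the matches, and the sequence runs 5′ to 3′ on the gene's strand.
Cxcl1 (chr5:90890995-90891244, plus strand): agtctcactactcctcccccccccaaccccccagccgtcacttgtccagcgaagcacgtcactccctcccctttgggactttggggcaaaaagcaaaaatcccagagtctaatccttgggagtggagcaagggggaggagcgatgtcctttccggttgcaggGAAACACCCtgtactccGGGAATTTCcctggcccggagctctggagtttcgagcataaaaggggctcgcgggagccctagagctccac
Cxcl2 (chr5:90903649-90903898, plus strand): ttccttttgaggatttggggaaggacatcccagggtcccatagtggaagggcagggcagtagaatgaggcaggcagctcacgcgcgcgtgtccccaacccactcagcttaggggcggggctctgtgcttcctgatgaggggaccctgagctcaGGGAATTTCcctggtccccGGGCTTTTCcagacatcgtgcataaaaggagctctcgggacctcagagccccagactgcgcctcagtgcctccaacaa
Cxcl3 (chr5:90785851-90786100, plus strand): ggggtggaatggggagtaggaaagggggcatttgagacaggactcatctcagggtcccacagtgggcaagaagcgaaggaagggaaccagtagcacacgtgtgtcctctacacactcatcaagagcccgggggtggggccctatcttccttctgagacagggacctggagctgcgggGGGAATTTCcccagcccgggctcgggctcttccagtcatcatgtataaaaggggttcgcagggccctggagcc
Ccl9 (chr11:83578637-83578886, minus strand): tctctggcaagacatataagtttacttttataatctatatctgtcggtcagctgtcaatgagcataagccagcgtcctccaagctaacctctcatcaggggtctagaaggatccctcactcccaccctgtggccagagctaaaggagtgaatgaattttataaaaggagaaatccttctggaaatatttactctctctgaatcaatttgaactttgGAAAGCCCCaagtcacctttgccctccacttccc

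Matches in Cxcl1 began 88 and 71 bases before the start, those in Cxcl2 at 97 and 78, the one in Cxcl3 at 73 and the one in Ccl9 at 34. Cxcl1 was lower in Phf21a siRNA cells and Ccl9 was not, so carriers of a match lay on both sides of a log2 ratio of 0. Promoters of Ccl2, Ccl7 and Cxcl5 were not analysed here. The windows of Cx3cl1, Cxcl10, Cxcl12 and Ccl8 hold no GGGNNTTTC. Other forms of the kappa-B element were not searched, so a window without this match may still hold such an element. A match is a run of letters and was not measured as a binding site here.

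Cx3cl1 encodes fractalkine, a chemokine tethered to the cell surface until it is shed, and its signal was lower on both detected probe sets. Its brightest probe set (Entrez gene 20312) read 60.8 in Phf21a siRNA cells, against 262 in control siRNA cells (log2 ratio -2.11 ± 0.70). The second read 21.1 in Phf21a siRNA cells and 124 in control siRNA cells, at least 2.43-fold lower with the dim signal raised to the detection limit. A further pair of probe sets was undetected on both arrays. Its receptor Cx3cr1 was undetected, with highest signals of 25.6 in Phf21a siRNA cells and 44.3 in control siRNA cells.

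Among detected genes under the 75th percentile 9.12% were at least 2-fold lower and 9.27% at least 2-fold higher. Of the 12 ligands in that range 4 were lower (Cx3cl1, Cxcl10, Cxcl17 and Ccl11) and 2 higher (Ccl5 and Ccl8). Cxcl10, an interferon-induced attractant of T cells, had a signal of 45.98 in Phf21a siRNA cells, against 110.4 in control siRNA cells. With the dim signal raised to the detection limit it was at least 2.15-fold lower. Cxcl17, a mucosal chemokine, had 14.6 in Phf21a siRNA cells against 65.5 in control siRNA cells. The eosinophil attractant Ccl11 had 11.5 in Phf21a siRNA cells against 51.9 in control siRNA cells. Both of these reached the limit on the control siRNA array by a small margin. Raised to that limit, they differed by log2 ratios of -0.35 for Cxcl17 and -0.02 for Ccl11. Ccl28, an epithelial chemokine, was lower on both detected probe sets, at 42.5 and 32.2 in Phf21a siRNA cells against 74.9 and 69.7 in control siRNA cells. The Phf21a siRNA signals of Ccl28 were under the limit, and its log2 ratio was -0.82 ± 0.77.

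Of the 2 ligands at least 2-fold higher, Ccl8 alone had both signals above the detection limit. Mouse Ccl8 acts through Ccr8 on T cells. It had a signal of 284 in Phf21a siRNA cells, against 109 in control siRNA cells (Entrez gene 20307, log2 ratio 1.39 ± 0.61). Scaled to the poly-A control transcripts added to the RNA, its log2 ratio was 0.66. Ccl9, a ligand of Ccr1, read 486 and 240.0 on its 2 probe sets in Phf21a siRNA cells, against 298 and 172 in control siRNA cells. Its log2 ratios were 0.70 ± 0.52 and 0.48 ± 0.60, short of 2-fold, and the first became -0.02 under poly-A scaling. Ccl5, which recruits T cells and monocytes, had 68.3 in Phf21a siRNA cells against 19.5 in control siRNA cells, and raised to the detection limit its log2 ratio was 0.41. Poly-A scaling moved the median log2 ratio of all detected genes to -0.73, and scaling to the hybridisation controls moved it to -0.21, so a ratio under either is read against that shift.

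**Figure D3:**
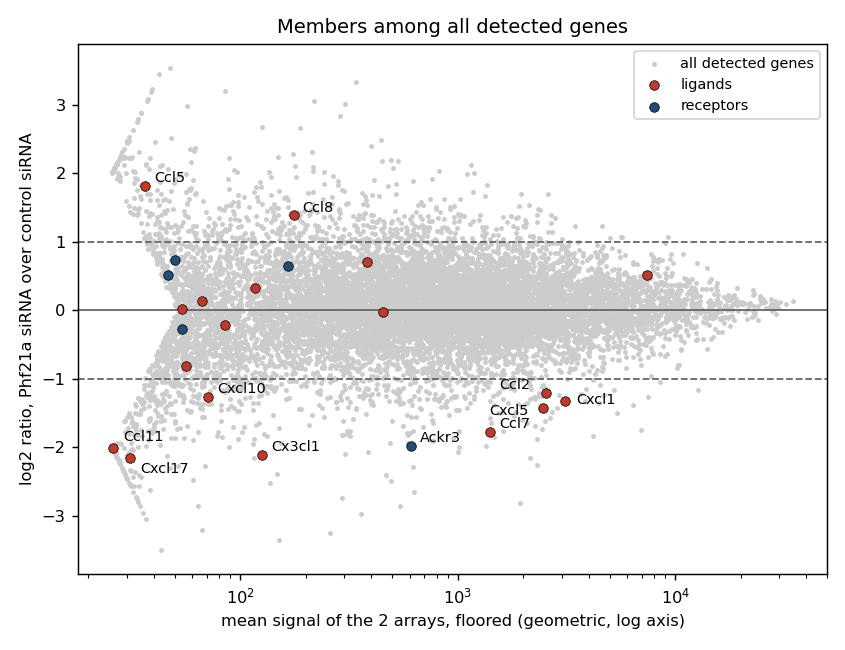
Log2 ratio (Phf21a siRNA over control siRNA) against the geometric mean signal of the 2 arrays (log axis) for all 11301 detected genes (grey), with ligands in red and receptors in blue and those past 2-fold (dashed lines) named. Ccl2, Ccl7, Cxcl1, Cxcl5 and Ackr3 lie below the band of genes of like signal, while Ccl5, Ccl11 and Cxcl17 lie in the wide scatter of dim genes.

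Cxcl12, which retains blood stem cells and leukocytes in tissue, gave opposite answers on its probe sets. The brightest read 8843 in Phf21a siRNA cells, against 6193 in control siRNA cells (log2 ratio 0.51 ± 0.33). A second read 744 in Phf21a siRNA cells, against 2049.8 in control siRNA cells (log2 ratio -1.46 ± 0.46). The third read 4.20 in Phf21a siRNA cells and 69.7 in control siRNA cells, and its log2 ratio was -0.44 with the dim signal raised to the detection limit. Averaged over the 3 probe sets the log2 ratio was -1.13, so no single direction holds for this gene. Under poly-A scaling the log2 ratio of the brightest was -0.21, beside a median of -0.73 over all detected genes. Each other member with several detected probe sets (Cxcl1, Cx3cl1, Ccl9, Ccl25, Ccl28 and Ackr4) had them on 1 side of 0.

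The remaining detected ligands had log2 ratios between -0.21 and 0.32, each within its local spread. Ccl25, which guides T cells to the gut, had 450.4 in Phf21a siRNA cells and 458 in control siRNA cells, with a second probe set at 216 and 223 in the same order. Cxcl16, a membrane-bound chemokine that also takes up oxidised lipoprotein, had 129.8 in Phf21a siRNA cells and 103.9 in control siRNA cells. Cxcl13, the B cell attractant, had 79.4 in Phf21a siRNA cells and 91.9 in control siRNA cells. Ccl4 had 69.5 and 63.2, and the skin chemokine Ccl27a had 54.1 and 53.3, in the same order. None of these 5 genes differed between the arrays by more than genes of like signal did.

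**Figure D4:**
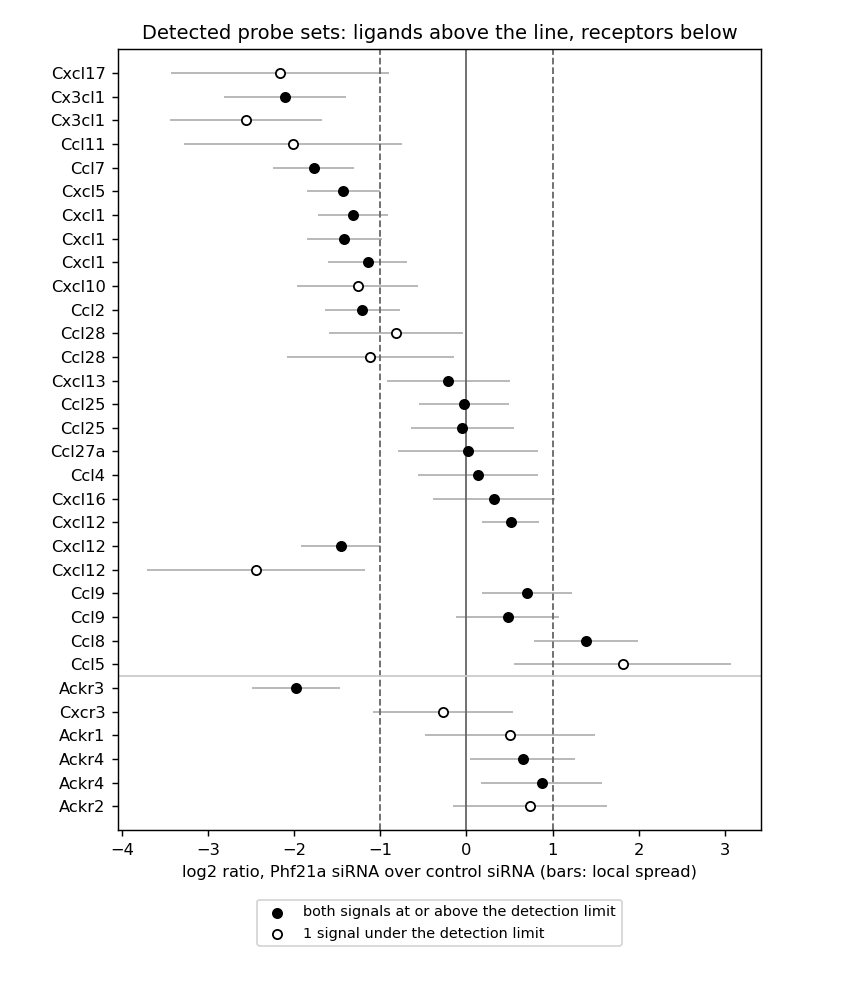
Log2 ratios (Phf21a siRNA over control siRNA) of the 32 detected member probe sets, with bars for the local spread, filled where both signals reached the detection limit and open where 1 did not, and dashed lines at 2-fold. All 3 probe sets of Cxcl1 and both detected ones of Cx3cl1 lie below -1, whereas those of Cxcl12 lie on both sides of 0.

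By family, the CXC ligands had 4 of 7 detected genes at least 2-fold lower and 0 at least 2-fold higher (median log2 ratio -1.26), and 3 lower with signals raised to the detection limit. The CC ligands had 3 of 10 at least 2-fold lower and 2 at least 2-fold higher (median -0.0010). With signals raised to the detection limit 2 of them were lower and 1 was higher. Over all detected genes 5.47% were lower and 5.72% higher by at least 2-fold, and 3.34% and 4.19% with signals raised to that limit. The difference between the families was not tested.

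Neighbouring ligand genes did not all go the same way. In RefSeq (GRCm38.p6) Ccl2, Ccl7, Ccl11, Ccl12, Ccl8 and Ccl1 follow each other on chromosome 11 with no other protein-coding gene between them. Ccl2 and Ccl7 were lower and Ccl8, a few genes on, was higher. A second run of 5 genes on chromosome 11 holds Ccl5, Ccl9, Ccl6, Ccl3 and Ccl4. Its detected members Ccl5, Ccl9 and Ccl4 had log2 ratios of 1.81, 0.70 and 0.14, of which that of Ccl5 rests on a dim control signal. Under poly-A scaling those of Ccl9 and Ccl4 were -0.02 and -0.59, both above the median of -0.73 over all detected genes.

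On chromosome 5 a run of 7 genes begins with Cxcl5 and ends with Cxcl1 and Cxcl2. Cxcl5 and Cxcl1 were detected and lower, while Cxcl3, Cxcl15 and Cxcl2 were undetected. The platelet chemokine gene Ppbp in the same run, whose symbol lies outside the name rule, had 162 in Phf21a siRNA cells and 263 in control siRNA cells (log2 ratio -0.70 ± 0.59). Cx3cl1 lies between Ccl22 and Ccl17 on chromosome 8. Those neighbours were undetected, at 17.2 and 22.9 in Phf21a siRNA cells and 35.7 and 50.007 in control siRNA cells.

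**Figure D5:**
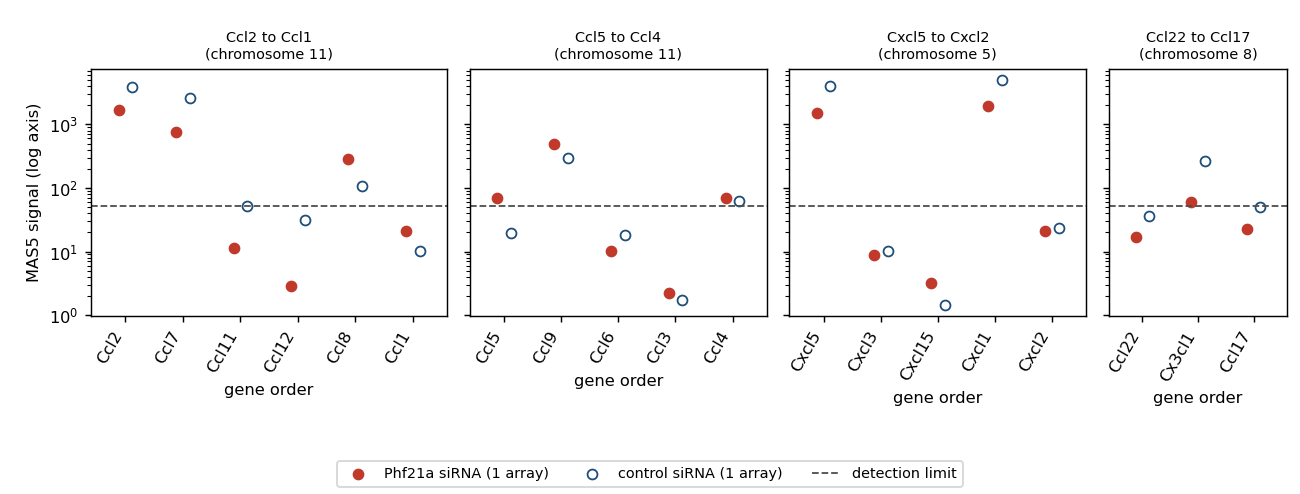
MAS5 signals (log axis) of ligand genes in their order along 4 runs of neighbouring genes, in Phf21a siRNA cells (filled) and control siRNA cells (open), with the detection limit (dashed); Ppbp and Pf4 between Cxcl5 and Cxcl3 are not drawn. Ccl2 and Ccl7 are lower in Phf21a siRNA cells and Ccl8 of the same run is higher.

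Among the receptors 1 of the 5 detected genes changed at least 2-fold, against 11.2% of all detected genes in either direction. It was Ackr3 (Entrez gene 12778), the atypical receptor that binds Cxcl12 and removes it. Its signal was 307 in Phf21a siRNA cells, against 1211 in control siRNA cells, a 3.94-fold lower level (log2 ratio -1.98 ± 0.52). Ackr3 has 1 probe set, with the suffix _s_at, which can bind more than 1 transcript. Cxcr4, the signalling receptor of Cxcl12, was undetected at 14.7 in Phf21a siRNA cells and 1.78 in control siRNA cells.

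Ackr4, which clears Ccl19, Ccl21 and Ccl25, leaned the other way without reaching 2-fold. Its detected probe sets read 208 and 167 in Phf21a siRNA cells, against 132 and 91.4 in control siRNA cells (log2 ratios 0.65 ± 0.61 and 0.87 ± 0.70). Under poly-A scaling the first was -0.07, beside -0.73 over all detected genes. Ackr2, which degrades inflammatory CC chemokines, had 64.8 in Phf21a siRNA cells and 38.9 in control siRNA cells on its highest probe set. Ackr1, the Duffy antigen, had 55.7 in Phf21a siRNA cells and 39.1 in control siRNA cells. Cxcr3, through which T cells respond to Cxcl10, had 49.2 in Phf21a siRNA cells and 59.5 in control siRNA cells. These 3 genes crossed the limit on 1 array only and differed by less than their local spread.

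Lists of regulators of chemokine genes had median log2 ratios between 0.06 and 0.23, beside 0.03 over all detected genes. Counts in these lists, and in the other gene lists that follow, are read against 5.47% lower and 5.72% higher over all detected genes. Of 11 detected NF-kB subunits and inhibitors 1 was at least 2-fold lower and 1 at least 2-fold higher (median log2 ratio 0.23). They were Bcl3, an NF-kB cofactor (89.1 in Phf21a siRNA cells against 192 in control siRNA cells), and Rel, an NF-kB subunit (160.1 against 53.4 in the same order). The feedback inhibitor Nfkbia had 11182 in Phf21a siRNA cells and 9503 in control siRNA cells (log2 ratio 0.23 ± 0.30). Tnfaip3, another brake on NF-kB, was at 0.81 ± 0.54, and Nfkbiz was at -0.56 ± 0.47. Of 18 detected receptors and adaptors upstream of NF-kB 0 were at least 2-fold lower and 3 at least 2-fold higher (median 0.19). Tlr4, the endotoxin receptor, had 520.4 in Phf21a siRNA cells, against 226 in control siRNA cells, and its 3 probe sets ran from 1.19 to 1.60. The other 2 were Ticam1 (1.01 ± 0.61) and Ikbkg, whose 6 probe sets ran from -0.24 to 1.06. Short of 2-fold, Irak1 was at 0.80 ± 0.50 and Il1rap at -0.78 ± 0.52.

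None of the 15 detected AP-1, C/EBP, IRF and glucocorticoid regulators passed 2-fold (median 0.08), nor did any of the 10 detected regulators of messenger RNA stability (median 0.06). The glucocorticoid-induced phosphatase gene Dusp1 was at 0.41 ± 0.37. Among 9 detected inflammatory mediators other than chemokines 0 were at least 2-fold lower and 3 at least 2-fold higher (median -0.18). Those higher were Lcn2, lipocalin 2 (2163 in Phf21a siRNA cells against 1068 in control siRNA cells), Il18 (1.05 ± 0.59) and the dim Tslp. Csf1, the macrophage growth factor, was at -0.63 ± 0.41, and the adhesion gene Vcam1 at -0.34 ± 0.43. Il6 had 116 in Phf21a siRNA cells and 147 in control siRNA cells (-0.33 ± 0.69).

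Genes that act on chemokine proteins went both ways. Of 12 detected genes of shedding, cleavage and presentation 3 were at least 2-fold lower and 1 at least 2-fold higher (median -0.08). Adam17, a protease that sheds Cx3cl1, had 539 in Phf21a siRNA cells, against 1083 in control siRNA cells, and its 3 probe sets ran from -1.15 to -0.79. Mmp14, a membrane metalloprotease, was at -1.01 ± 0.45, with 3 detected probe sets from -1.18 to -0.75. The third lower gene was the dim Mmp9. Sdc3, a heparan sulphate proteoglycan of the kind that holds chemokines at the cell surface, had 2126 in Phf21a siRNA cells, against 645 in control siRNA cells, with 3 probe sets from 0.62 to 1.72. Among 15 detected genes of receptor signalling 2 were at least 2-fold lower and 0 higher (median -0.14). Both lower genes, Rgs2 (-1.03 ± 0.46) and Rgs16 (-1.94 ± 0.64), shorten G protein signals. The 3 detected probe sets of Rgs2 ran from -1.05 to -0.53 and the 3 of Rgs16 from -1.94 to -0.72. Of 7 detected chemokine-like genes outside the name rule 0 were at least 2-fold lower and 1 was at least 2-fold higher (median -0.05). It was Cmtm3, a membrane protein of the chemokine-like factor family, at 4688 in Phf21a siRNA cells, against 1443 in control siRNA cells.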

How the data were processed

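Labelled cRNA from 1 ug of total RNA was hybridised to 1 array per group; sample descriptions gave the groups. The authors computed the deposited signal intensities, which are linear, with MAS5, per the submitters' processing notes, where no version is named. With 2% of probe sets trimmed at each end, the mean intensity rounded to 500 on each array. Signals scaled in this way cannot show a change in total messenger RNA. The added poly-A controls had a median log2 ratio of 0.73, and what lies behind it was not tested.

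Of 45101 probe sets 64 were controls and 34945 had 1 annotated gene; 4 probe sets shared by several genes and naming a chemokine or receptor were left out (highest signal 89.6). All 53 members matched the gene table by Entrez number, with 0 changed symbols. The members and all gene lists were chosen with earlier results of these data known. A probe set ending in _x_at represented a gene only where no other was detected. The local spread is 0.5 times the range from the 16th to the 84th percentile of log2 ratios. With 1 array per group no p-value was computed, and genes were counted at 2-fold.

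Named were all detected members and the 3 undetected ones nearest the limit (Ccl17, Xcl1 and Cx3cr1); genes named from other lists came from the 4 brighter genes of each list with the largest log2 ratios. Cxcl2, Cxcl3, Ccl12, Ccl22, Cxcr2, Cxcr4, Ccr2, Bcl3, Rel, Ticam1, Il18, Tslp, Il6, Cd36, Mmp9, Rgs16, Ppbp and the leukocyte markers were added after their values were seen, as were the promoters shown. Cebpa and Adipoq were added in the same way. The kappa-B motif was first searched with 1 more C at its end and was shortened after that result was seen, with the counts of both given. The counting was tested on simulated data, with changes planted only in genes well above the detection limit. No change was planted in genes as dim as Ccl5, Ccl8, Ccl11, Cxcl10, Cxcl17 and Cx3cl1, so their calls were not covered. Alternatives covered scaling, floor, pseudocount, probe set choice, detection limit and fold. Python 3.11.15, numpy 2.4.6, pandas 2.3.3, statsmodels 0.14.6 and matplotlib 3.10.9 were used.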

Additional observations from a re-analysis of the deposited data

How the results depend on the processing

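The 4 ligands Ccl2, Ccl7, Cxcl1 and Cxcl5 were at least 2-fold lower in Phf21a siRNA cells in 11 of 11 alternatives of scaling, floor, probe set choice and detection limit. Cx3cl1, Cxcl10 and Ackr3 were in the 10 that gave a value. Several alternatives could not move these ratios, so 11 is not a number of separate checks. Raising signals to the detection limit, or moving that limit, left Ccl2, Ccl7, Cxcl1, Cxcl5, Cx3cl1 and Ackr3 unchanged where detected. Probe set choice could not alter Ccl2, Ccl7 and Cxcl5, which have 1 probe set each. Ccl11, Cxcl17 and Ccl5 lost the 2-fold difference with signals raised to the detection limit, and Ccl8 did under poly-A scaling. With the detection limit at the 75th percentile 6 ligands and 1 receptor were detected, and at the 60th percentile 10 ligands and 2 receptors. Of all genes with a probe set 39.5% and 53.6% were detected in the same order. With both signals at the limit 2 receptors were detected, and without suffixed probe sets 3. Of all genes treated alike 56.9% and 59.3% were detected in the same order. The ligands at least 2-fold lower numbered 4 at the 75th percentile limit, 13 with no limit and 4 at 3-fold. Of all genes treated alike 3.36%, 6.96% and 1.87% were lower in the same order. With no limit all 33 ligands were counted, undetected ones included. Ligands at least 2-fold higher numbered 1 under poly-A scaling, with the floor at the detection limit and at 3-fold. They numbered 0 at the 75th percentile limit. Of all genes treated alike 0.82%, 4.19%, 1.68% and 3.65% were higher in the same order. The receptors past 2-fold numbered 3 under poly-A scaling, 0 without suffixed probe sets (which removes Ackr3), 4 with no limit and 3 at 1.5-fold. Of all genes treated alike 6.17% were lower and 5.78% higher without suffixed probe sets. These shares were 6.96% and 5.65% with no limit, and 13.9% and 15.2% at 1.5-fold. The median log2 ratio of the ligands, which falls in a gap between lower and little changed genes, was -0.16 after quantile normalization, -1.70 under poly-A scaling, -1.05 under hybridisation scaling, -0.12 with the floor at the detection limit, -1.05 averaged over probe sets, -0.82 without suffixed probe sets, -1.26 at the 75th percentile limit and -0.27 with no limit. Poly-A scaling put 30.6% of all detected genes at 2-fold lower or beyond and 0.82% at 2-fold higher or beyond, against 5.47% and 5.72% as reported. The kappa-B match with 1 more C, the form searched before the shorter one, was in 5 ligand genes and 1 receptor gene, against 7 and 4 with the shorter form. Why these counts and medians moved was not tested beyond the change of limit, fold or probe sets itself. Of 230 log2 ratios of single members under an alternative, 211 moved by less than the local spread and 19 by more. The 211 include ratios that the alternative could not change. No paired analysis was possible because each group has 1 array, and no array could be left out for the same reason.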
